A study of Drosophila melanogaster with 6 samples.

Results

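The genes of the circadian clock were followed in whole Drosophila larvae that lack full-length CG1603, a zinc finger transcription factor. The 10 genes were taken by name from the 16727 genes counted in every library, as the parts of the clock that flies are best known for: per, tim, Clk, cyc, vri, Pdp1, cwo, cry, dco (also called doubletime, dbt) and Pdf. They were chosen for their place in the clock, at a time when earlier results of these data were known. The tested larvae were homozygous for CG1603PBac, a PiggyBac insertion in an intron of CG1603 that carries stop codons and an eye DsRed marker and had been backcrossed to w1118. Homozygotes were picked by the absence of a fluorescent balancer chromosome. They stop developing in the second instar, so effects of genotype and of a difference in developmental stage cannot be told apart here. The other larvae were wt, and their strain is not given in the sources used here. Both groups were second-instar larvae taken 48 hr after egg laying, with 3 biological replicates each, and poly(A) RNA of the whole body was sequenced. How many larvae made up a library, the hour of the day at collection and the light cycle are not given in the sources used here.

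The fly clock is a feedback loop. CLK and CYC, a pair of bHLH-PAS activators, switch on per and tim, whose proteins return to the nucleus and block CLK and CYC. A second loop joins the same activators to vri and Pdp1, bZIP factors that repress and activate Clk, and to cwo, a repressor that competes for the same E-box sites. The kinase made by dco sets the pace by marking PER for destruction, and CRY is the blue-light receptor that removes TIM. PDF is the peptide by which a small set of brain neurons signals time to other cells. In a cycling animal per, tim, vri, Pdp1 and cwo RNA peak around dusk and the night, while Clk and cry RNA peak in the opposite phase. Many of these genes also act outside the clock neurons, vri in tracheal and cell growth and Pdp1 in muscle and fat body.

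Libraries held between 27100927 and 36016914 gene counts, and 54.8 ± 0.332% of reads were assigned to genes in CG1603PBac libraries, against 79.5 ± 0.442% in wt libraries (SD, n = 3 each). Reads that did not align made up 31.4 ± 0.445% in CG1603PBac and 8.77 ± 0.354% in wt libraries, a difference whose part in the values below was not tested. CG1603 itself had 956, 999 and 1072 counts in CG1603PBac libraries, against 613, 493 and 571 in wt libraries (log2 fold change 0.57, SE 0.13, adjusted p = 3.62e-04 in the quasi-likelihood test of edgeR). A gene count adds reads before and after the insertion, so it does not check the genotype. Levels are CPM, counts relative to the library total as scaled with TMM factors, and a call means an adjusted p under 0.05 over the 11306 genes tested. In this comparison 69.7% of all genes tested were called, 34.8% as higher and 34.9% as lower.

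Of the 10 clock genes, 6 rose in CG1603PBac larvae, 0 fell, 3 were tested without a call and Clk had too few counts for the test. The 6 were per, tim, cyc, Pdp1, cwo and Pdf, and 4 of them (per, tim, cwo and Pdf) rose by more than 2-fold, which 17% of all genes tested did. The 3 without a call were vri, cry and dco. In 8 of the 10 genes all CG1603PBac libraries lay above all wt libraries and in 0 genes below them. Of all genes tested, 37.5% lay above and 36.3% below. The 8 include Clk, which was not tested, and per and tim. The filter on low counts was met in all 3 CG1603PBac libraries for per and tim, but in 0 wt libraries for per and 1 for tim. They were thus tested through the group where they are high, so their calls are not independent of the filter. Of the other 7 genes tested, 4 rose, and 2 of these by more than 2-fold. Among the same 7, all CG1603PBac libraries lay above all wt libraries in cyc, Pdp1, cwo, dco and Pdf. In whole-body RNA, more cells of a type and more RNA per cell cannot be told apart.

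**Figure D1:**
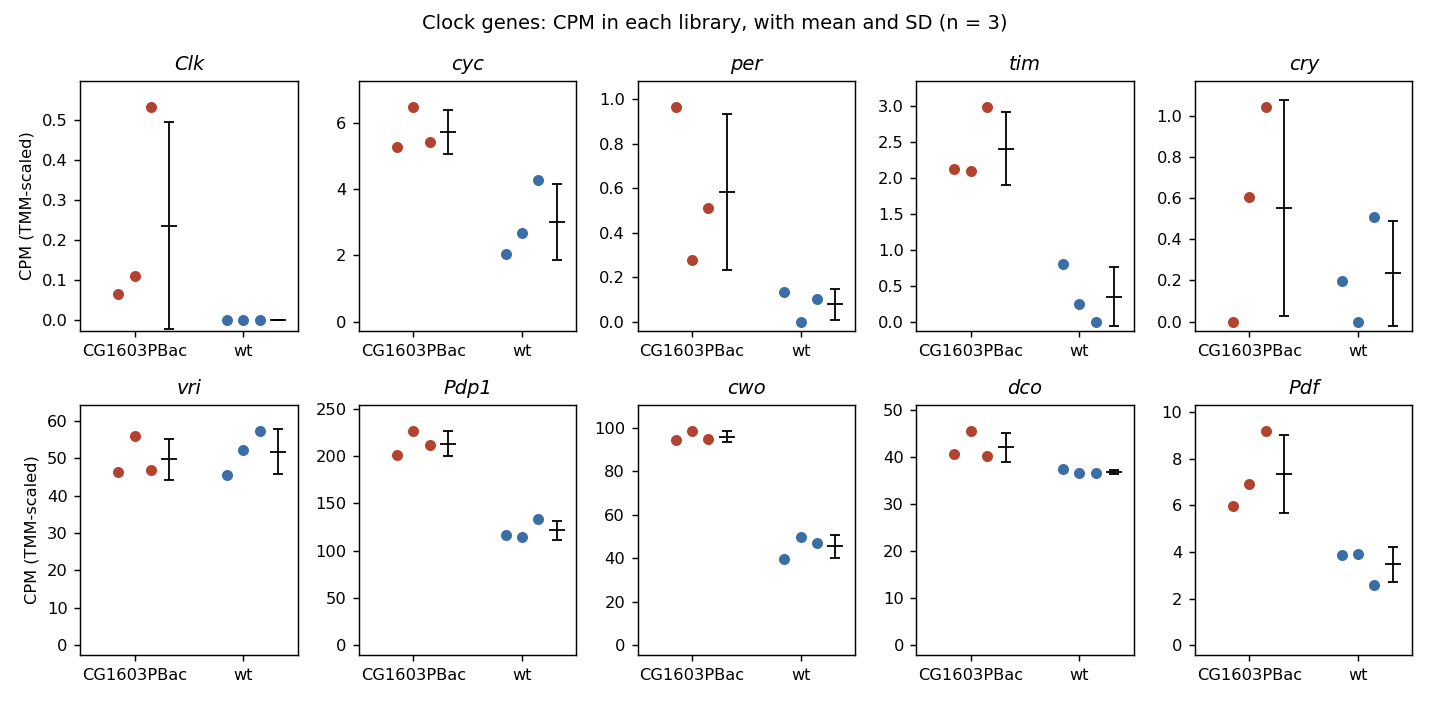
Level of each of the 10 clock genes, in CPM with TMM scaling (vertical axis, a scale of its own for each gene), in the 3 CG1603PBac libraries (red, left) and the 3 wt libraries (blue, right), with mean and SD beside the points. In 8 genes every CG1603PBac library lies above every wt library, and the groups overlap in vri and cry.

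**Figure D2:**
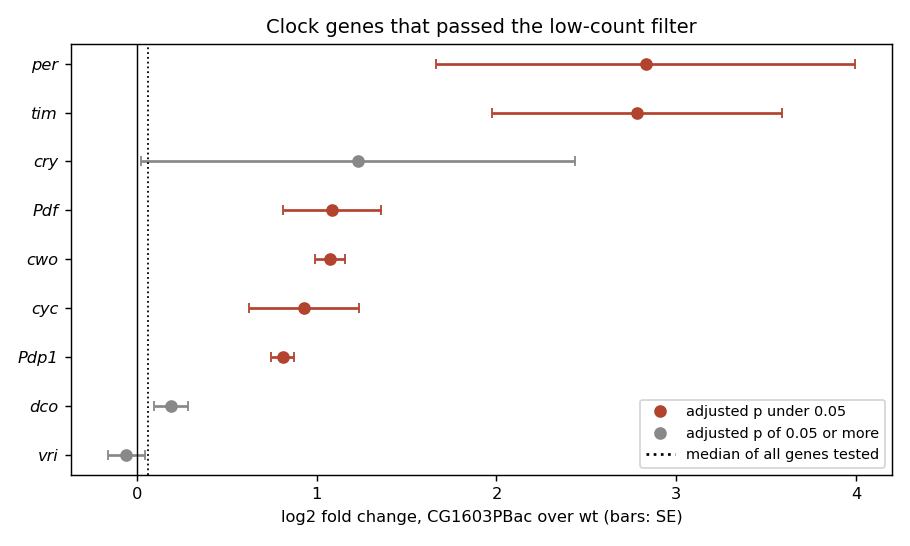
Log2 fold change of CG1603PBac over wt (horizontal axis) for the 9 clock genes that passed the filter, with bars of 1 SE, red where the adjusted p was under 0.05 and grey where not, and a dotted line at the median of all genes tested, 0.06. The bars of per, tim and cry are the widest.

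Of the activators, Clk was read very little and cyc rose. Clk (FBgn0023076, chromosome 3L from 7763233 to 7775603, minus strand of dm6) had 2, 4 and 22 counts in CG1603PBac libraries and 0 counts in all 3 wt libraries. The 0 counts allow at most 0.0338 CPM over the wt group (3 counts), and pooled Clk in CG1603PBac larvae was 7.64-fold above that ceiling. With counting error of the CG1603PBac counts included, the exact 95% interval of the pooled ratio began at 5.81-fold. These values cover counting error only and rest on replicate 3, which held 22 of the 28 counts. Clk had no test at the filter used. It was called as higher where it could be tested, with adjusted p = 0.0326 in DESeq2 and adjusted p = 0.0209 in edgeR without a filter. With 0 counts in wt libraries, it entered both fits only through CG1603PBac counts. How far these calls rest on replicate 3 was not tested.

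The partner of Clk, cyc (FBgn0023094, 3L from 19813770 to 19815938), was read in every library. Its levels were 5.28, 6.50 and 5.44 CPM in CG1603PBac libraries, against 2.06, 2.69 and 4.29 CPM in wt libraries. The lowest CG1603PBac library lay above the highest wt library. The log2 fold change was 0.93 (SE 0.31, adjusted p = 0.0105 from edgeR), or 1.90-fold. Without CG1603PBac replicate 2 the value was 0.83 and the call was lost (adjusted p = 0.0547 from edgeR).

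The feedback repressors per and tim were close to the detection limit in wt larvae and higher in the mutant. For per (FBgn0003068, X from 2685580 to 2692780), the counts were 30, 10 and 21 in CG1603PBac libraries and 4, 0 and 3 in wt libraries. In CPM this was 0.584 ± 0.350 in CG1603PBac and 0.0780 ± 0.0694 in wt larvae (SD, n = 3 each). On the log2 scale the difference was 2.83 (SE 1.16, adjusted p = 0.0361 from edgeR), a narrow call. Leaving out any library other than wt replicate 1 ended it, with adjusted p from 0.0567 to 0.210.

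The call of tim was firmer. Its counts (FBgn0014396, 2L from 3493986 to 3508119) were 66, 76 and 123 in CG1603PBac libraries, against 24, 7 and 0 in wt libraries, that is 2.12, 2.10 and 2.99 CPM against 0.797, 0.242 and 0 CPM. All mutant libraries lay above all wt libraries, of which 1 had no read. The log2 fold change was 2.78 (SE 0.81, adjusted p = 0.00439 from edgeR), and it lay between 2.18 and 4.28 with each library left out in turn, always with a call. Without wt replicate 1 it was 4.28. Exons of 2 other genes, the long non-coding RNA gene lncRNA:CR46495 on the opposite strand and snoRNA:Or-CD16 on the same strand, overlap 7.74% and 2.15% of those of tim, and the strand setting of the counting is not given. For per the overlap, with dyw, was 1.08%.

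Of the factors of the second loop, Pdp1 and cwo rose and vri did not pass the test. Pdp1 (FBgn0016694, 3L from 7811458 to 7867369) was the most counted member, at 201, 227 and 211 CPM in CG1603PBac libraries and 116, 115 and 133 CPM in wt libraries. Replicates lay close together and the groups were well apart. The log2 fold change was 0.81 (SE 0.06, adjusted p = 2.63e-10 from edgeR), or 1.76-fold. Across all genes, long transcripts tended to be higher in the mutant, and Pdp1 has 12138 bases of exons over 13 annotated transcripts, the longest of the 10. With the trend on exon length removed, Pdp1 was at 0.03 on the log2 scale (adjusted p = 0.693 from edgeR), so this call was lost.

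The repressor gene cwo (FBgn0259938, 3R from 10388258 to 10400752) was at 94.3, 98.6 and 94.6 CPM in CG1603PBac libraries, against 39.7, 49.9 and 46.9 CPM in wt libraries. This was 2.11-fold higher, or 1.07 on the log2 scale (SE 0.08, adjusted p = 2.37e-10 from edgeR). Its smallest value over all 15 alternatives was 0.71, with the length trend removed, and it was called as higher in each of them.

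By contrast, vri (FBgn0016076, 2L from 5288944 to 5311223) was at 46.3, 56.0 and 46.8 CPM in CG1603PBac libraries and at 45.4, 52.3 and 57.4 CPM in wt libraries. The range of the wt libraries enclosed that of the mutant ones, and the log2 fold change was −0.06 (SE 0.10, adjusted p = 0.631 from edgeR). The sign of vri depends on the scaling. With library totals in place of TMM it was called as higher at 0.34 (adjusted p = 0.00768 from edgeR), and with the length trend removed as lower at −0.37 (adjusted p = 0.00280 from edgeR). With library totals the median over all genes lay at 0.45 on the log2 scale, and with TMM at 0.06, so relative to that median vri was below it in both.

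Ratios of counts within a library do not depend on that scaling. The ratio of Pdp1 to vri was 4.34, 4.05 and 4.52 in CG1603PBac libraries, against 2.56, 2.19 and 2.32 in wt libraries. That of cwo to vri was 2.04, 1.76 and 2.02 in CG1603PBac libraries, against 0.874, 0.954 and 0.818 in wt libraries. In both pairs, and for cyc and Pdf over vri, the mutant libraries lay above all wt libraries. These genes thus changed unequally with vri whatever the library scaling. The trend on exon length does not cancel in such ratios. On the log2 scale it was 0.78 for Pdp1, 0.37 for cwo, 0.32 for vri, −0.02 for cyc and −0.03 for Pdf. The ratio of dco to vri, 0.851 ± 0.0319 in CG1603PBac and 0.722 ± 0.0948 in wt libraries (SD, n = 3 each), overlapped between the groups. So did that of Pdp1 to cwo, at 2.22 ± 0.0858 in CG1603PBac and 2.69 ± 0.340 in wt libraries (SD, n = 3 each). With 3 libraries against 3 an exact permutation test, two-sided, cannot give a p below 0.1, so no ratio can pass 0.05.

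**Figure D3:**
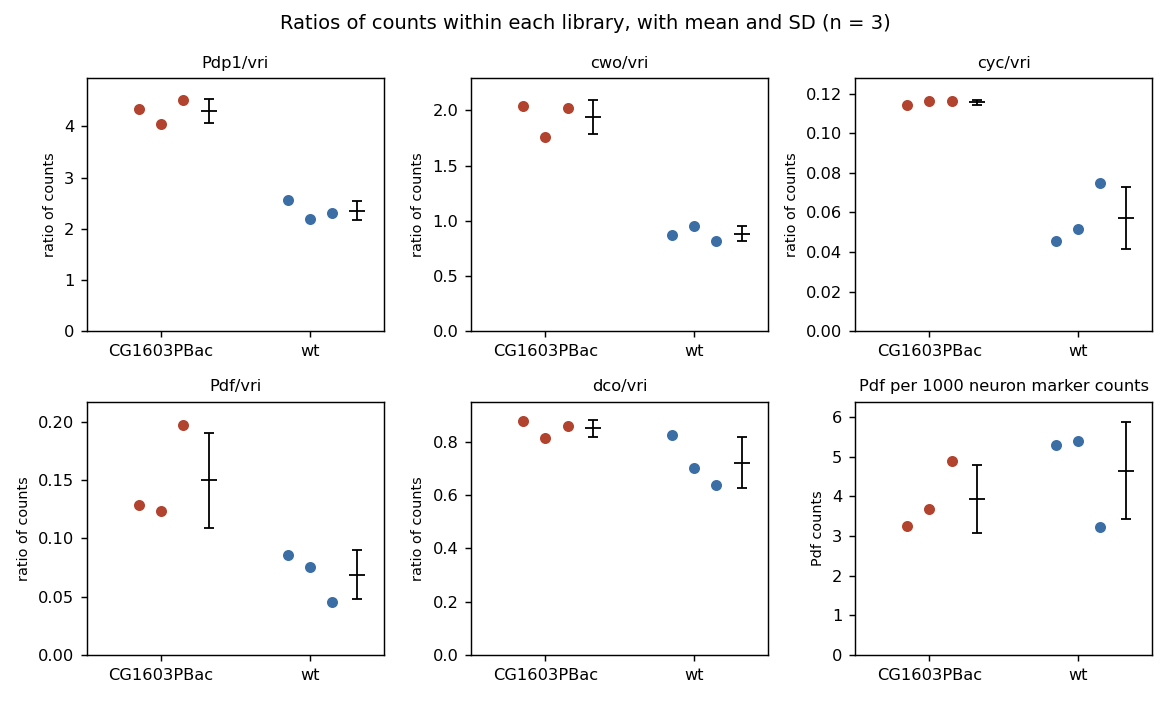
Ratios of counts within each library (vertical axes, from 0) in the 3 CG1603PBac libraries (red, left) and the 3 wt libraries (blue, right), with mean and SD. Pdp1, cwo, cyc and Pdf over vri do not overlap between the genotypes, while dco over vri and Pdf per 1000 counts of neuron markers do.

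The light receptor gene cry and the kinase gene dco had no call. For cry (FBgn0025680, 3R from 19212154 to 19215442), counts were 0, 22 and 43 in CG1603PBac libraries and 6, 0 and 15 in wt libraries. A library without a read occurred in each genotype, and the log2 fold change of 1.23 had an SE of 1.21 (adjusted p = 0.375 from edgeR). The libraries of each genotype differed too much among themselves for a call. In CG1603PBac replicate 1, the library with 0 counts of cry and the fewest of Clk, per had its highest count. The highest count of tim, by contrast, lay in CG1603PBac replicate 3, which held the most counts of Clk and cry. Exons of lncRNA:CR46393 on the same strand cover 17.4% of those of cry, which limits the reads that can be assigned to it, and exons of vib on the opposite strand cover 0.475%.

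The kinase gene dco (FBgn0002413, 3R from 31054085 to 31061210) varied little. It was at 40.6, 45.7 and 40.2 CPM in CG1603PBac libraries and at 37.5, 36.7 and 36.7 CPM in wt libraries. All mutant libraries lay above all wt libraries, by a small step. The log2 fold change was 0.19 (SE 0.10, adjusted p = 0.0840 from edgeR). It was called as higher with library totals (0.58) and with at least 10 counts required in every library (0.23), and its sign turned, without a call, with the length trend removed (−0.13).

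The output peptide gene Pdf rose. Pdf (FBgn0023178, 3R from 26455462 to 26456141) is a short gene of 680 bases in a single exon and is the best known marker of the lateral clock neurons. Its levels were 5.95, 6.91 and 9.21 CPM in CG1603PBac libraries, against 3.88, 3.94 and 2.60 CPM in wt libraries. No libraries overlapped, and the fold was 2.12 (log2 fold change 1.08, SE 0.27, adjusted p = 0.00129 from edgeR). The call stood in all 15 alternatives, from 0.89 to 1.48.

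Neuron markers moved with Pdf. Of 15 markers, 14 were higher, where 34.8% of all genes tested were, and Csp, a chaperone of synaptic vesicles, was not called (−0.03). The calcium channel gene cac led them at 2.22. Summed, the markers were at 1836 to 1886 CPM in CG1603PBac libraries and at 728 to 803 CPM in wt libraries, and their median log2 fold change was 1.60, beside 0.06 for all genes tested. Per 1000 counts of neuron markers there were 3.24, 3.67 and 4.89 counts of Pdf in CG1603PBac libraries, against 5.31, 5.41 and 3.24 in wt libraries. Relative to neuron markers, then, Pdf was not higher in the mutant and the groups overlapped. The trend on exon length does not cancel in this ratio either. On the log2 scale it was −0.03 for Pdf, and its part in the values of the neuron markers was not tested.

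Glial cells also hold a clock, and their markers did not move as a group. Of 12 glia markers 11 were tested, 3 were higher and 1 was lower, with repo, the glial homeobox gene, at 1.45, and gcm at −1.37 without a call (adjusted p = 0.0789 from edgeR). For these and the fat body and midgut counts below, the shares over all genes tested were 34.8% higher and 34.9% lower. Their summed level was 1170 to 1204 CPM in CG1603PBac libraries, against 1393 to 1451 CPM in wt libraries, and Indy-2 was at 0 in every library. The most abundant of them, the glutamine synthetase gene Gs2, was the marker that fell, at 603 ± 19.0 CPM in CG1603PBac and 876 ± 15.2 CPM in wt larvae (SD, n = 3 each). Without Gs2, singled out after its values were seen, the sum was 573 to 586 CPM in CG1603PBac libraries and 519 to 563 CPM in wt libraries. Markers of other tissues that express clock genes were present and lower in sum. Fat body markers summed to 1707 to 1785 CPM in CG1603PBac libraries and to 4794 to 4991 CPM in wt libraries (4 of 8 tested lower, 1 higher, Fbp1 at 0), with Lsp1beta at −2.09 and Lsp1alpha at 1.72 without a call (adjusted p = 0.172 from edgeR). Midgut markers summed to 4954 to 5168 CPM in CG1603PBac libraries and to 6638 to 7731 CPM in wt libraries (7 of 10 lower, 3 higher), with Vha100-4 at −2.65 and Amy-p at 2.46. The part of tissue make-up in the values of the clock genes, Pdf among them, was not tested.

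Muscle markers were all lower, at 18047 to 18281 CPM in CG1603PBac libraries and 47851 to 51774 CPM in wt libraries (10 of 10, from −2.46 in Mlp60A to −0.09 in sls). Trachea markers summed to 5228 to 5305 CPM in CG1603PBac libraries, against 4147 to 4374 CPM in wt libraries, with 2 of 5 higher and 1 lower, from Gasp at 0.54 to btl at −0.75. Prothoracic gland markers summed to 75.3 to 79.7 CPM in CG1603PBac libraries and to 71.5 to 78.4 CPM in wt libraries, with 1 of 8 tested higher and 2 lower. Among these dib, an ecdysone synthesis enzyme, was at −2.46 and nvd at 1.11 without a call (adjusted p = 0.0893 from edgeR). Of 10 genes of the response to ecdysone, the moulting hormone, 5 were higher and 3 lower, from Eip74EF at 2.57 to Hr46 at −1.82. The shares to set beside the counts in this paragraph are those of all genes tested, 34.8% higher and 34.9% lower.

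Compared per length, as counts per kb of exon scaled to the same total in every library (TPM), the order of the clock genes differed between the genotypes. TPM has no TMM factors, so only the order within a genotype is read here. In CG1603PBac larvae cwo (40.4 ± 1.20 TPM) and Pdp1 (37.7 ± 2.43 TPM) came first and overlapped each other. Pdf (23.2 ± 5.19 TPM) and vri (22.5 ± 2.59 TPM) followed, also overlapping, then dco (18.9 ± 1.47 TPM) and cyc (7.59 ± 0.907 TPM). Below 1 TPM lay tim (0.734 ± 0.151), cry (0.624 ± 0.592), per (0.277 ± 0.166) and Clk (0.112 ± 0.123), each overlapping the next (SD, n = 3 each).

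In wt larvae vri came first at 16.8 ± 2.25 TPM, followed by Pdp1 (15.4 ± 1.57), cwo (13.8 ± 1.71) and dco (11.9 ± 0.139), and each overlapped the next. Pdf at 7.85 ± 1.60 TPM and cyc at 2.87 ± 1.15 TPM were separate from their neighbours. The last places were held by cry (0.193 ± 0.212), tim (0.0748 ± 0.0880), per (0.0265 ± 0.0235) and Clk (0), with overlaps throughout (SD, n = 3 each). In both genotypes the activator Clk was thus read far less than cyc, and per and tim far less than the other genes that CLK and CYC switch on. The mean of cwo stood above 76.2% of all genes with a length in CG1603PBac larvae and above 63.6% in wt larvae, and that of per above 26.6% and 23.6%.

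Genes that act on clock proteins after translation did not move together. Of 15 genes of kinases, phosphatases and protein turnover, 5 were higher, 9 were lower and 1 had no call. The shares over all genes tested were 34.8% higher and 34.9% lower. The median of the list on the log2 scale was −0.18. The kinase genes nmo, whose product slows the clock, and sgg, the fly GSK3 that phosphorylates TIM, rose by 0.71 (SE 0.10, adjusted p = 3.07e-06 from edgeR) and 0.63 (SE 0.06, adjusted p = 3.87e-09 from edgeR). The ubiquitin ligase genes Roc1a (−0.81) and Cul3 (−0.77) were the lowest. Lower too were slmb, whose F-box protein sends PER to degradation (−0.24, adjusted p = 0.00217 from edgeR), and Bdbt, which binds the kinase of dco (−0.49, adjusted p = 0.00150 from edgeR). The last was at 17.5 ± 0.344 CPM in CG1603PBac and 24.6 ± 1.71 CPM in wt larvae (SD, n = 3 each).

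On the light input side 7 of 13 genes rose, 0 fell, 5 were tested without a call and ninaA was at 0 in all libraries. Of all genes tested, 34.8% were higher and 34.9% lower. The rhodopsin gene Rh6, of the larval eye, was at 95.4 ± 5.64 CPM in CG1603PBac and 20.5 ± 3.20 CPM in wt larvae (SD, n = 3 each), higher by 2.22 on the log2 scale (SE 0.10, adjusted p = 3.17e-14 from edgeR). The channel gene trpl was at 2.31 (adjusted p = 0.00344 from edgeR). In wt libraries it was at only 0.199, 0.242 and 1.22 CPM. Like tim, it thus passed the filter on low counts largely through CG1603PBac libraries, and the 7 include it. Its relative trp was at −1.01 (adjusted p = 0.371 from edgeR), and eya, of eye development, at −0.65 (adjusted p = 0.122 from edgeR). The F-box gene jet, whose product acts with CRY in removing TIM, rose by 0.95 (SE 0.12, adjusted p = 7.21e-07 from edgeR), at 34.0 ± 3.93 CPM in CG1603PBac and 17.7 ± 1.29 CPM in wt larvae (SD, n = 3 each). The median of the list was 1.16.

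Most of the output genes rose. Of 21 genes of clock output and neuronal excitability, 19 were higher, 0 were lower and 2 had no call, with a median of 1.45, where 34.8% of all genes tested were higher. The largest was to (takeout), a clock-controlled gene tied to feeding, at 17.1 ± 2.56 CPM in CG1603PBac and 2.14 ± 0.388 CPM in wt larvae (SD, n = 3 each). Its log2 fold change was 2.99 (SE 0.22, adjusted p = 8.44e-11 from edgeR). The neuropeptide gene Dh31 was next at 2.41 (SE 0.11, adjusted p = 1.21e-14 from edgeR). The PDF receptor gene Pdfr was at 3.24 ± 0.546 CPM in CG1603PBac and 1.98 ± 0.436 CPM in wt larvae (SD, n = 3 each), without a call (0.71, adjusted p = 0.109 from edgeR). The smallest was Irk1, a potassium channel gene, at 0.24. Most genes of this list act in neurons, whose markers moved the same way. The part of tissue make-up in these values was not tested.

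Of 16 regulators of clock gene expression, 10 rose, 2 fell and 4 had no call, with a median of 0.37. Over all genes tested 34.8% rose and 34.9% fell. Hr38, a nuclear receptor gene that neuronal activity induces, rose by 1.61 (SE 0.18, adjusted p = 4.70e-08 from edgeR), and kay, the fly Fos and a repressor of CLK activity, by 1.55 (SE 0.05, adjusted p = 4.48e-17 from edgeR). The RNA-binding protein genes Fmr1 (−1.10) and Atx2 (−0.47) were the members that fell. Atx2 is known as an activator of per translation.

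The relatives of clock proteins showed no shared direction. Of 18, 17 were tested, of which 6 rose, 4 fell and 7 had no call (median 0.64). Among all genes tested the shares were 34.8% higher and 34.9% lower. The highest were the bHLH-PAS genes ss at 1.66 (SE 0.50, adjusted p = 0.00613 from edgeR) and sim at 1.13 (adjusted p = 0.300 from edgeR). The lowest were phr6-4, a photolyase gene of the cry family, at −2.34 (SE 0.40, adjusted p = 2.06e-05 from edgeR) and timeout, the paralog of tim, at −1.69 (SE 0.25, adjusted p = 2.96e-06 from edgeR). Thus timeout fell where tim rose.

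**Figure D4:**
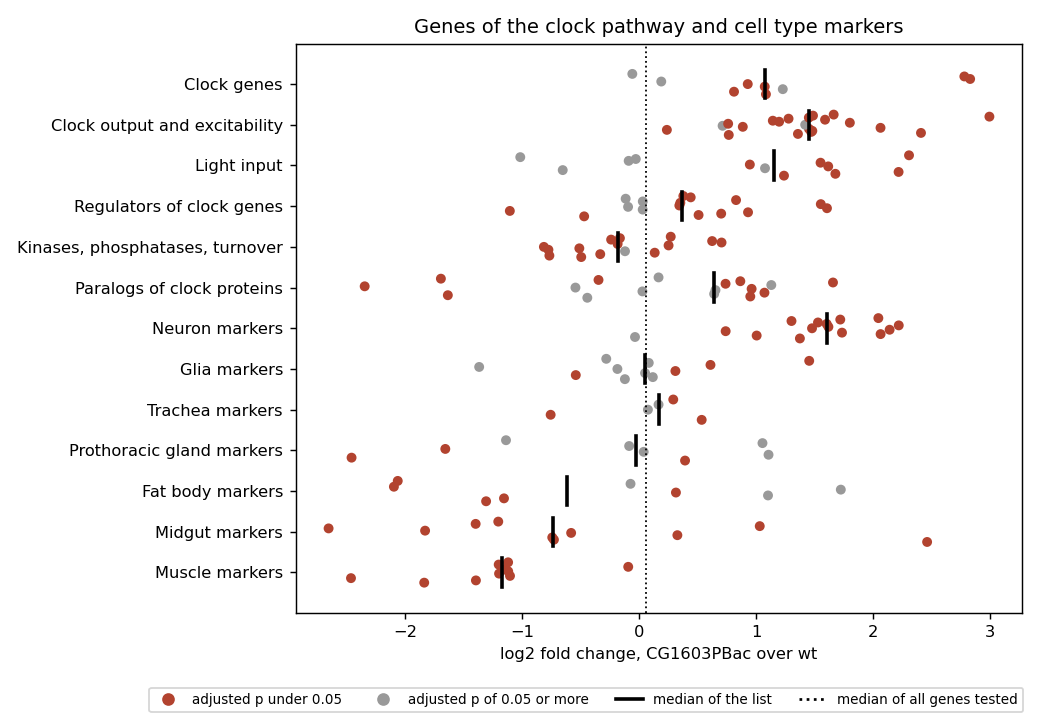
Log2 fold change of CG1603PBac over wt (horizontal axis) of the genes tested in each list, with clock lists above and cell type markers below, red where the adjusted p was under 0.05 and grey where not, thick lines at list medians and a dotted line at the median of all genes tested. The output list has a median of 1.45 and neuron markers of 1.60, while kinases and turnover lie at −0.18 and muscle markers at −1.17.

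The processing moved some clock genes more than others. Over the main setting and its 15 alternatives, tim, cwo and Pdf were called as higher wherever they were tested. The call was made for cyc in 15 of 16, for Pdp1 in 14 of 16 and for per in 6 of 15. In the main setting tim and per passed the filter through CG1603PBac libraries, with 1 wt library at the cut-off for tim and 0 for per. Their calls are thus not independent of the filter. Neither was tested where at least 10 counts were required in every library. The log2 fold change of cry ran from 0.38 to 2.41 and was called in 0 of 15, with an unadjusted p of 0.320 in edgeR with TMM and the filter. That of vri ran from −0.37 to 0.34, with 1 call as higher and 2 as lower.

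**Figure D5:**
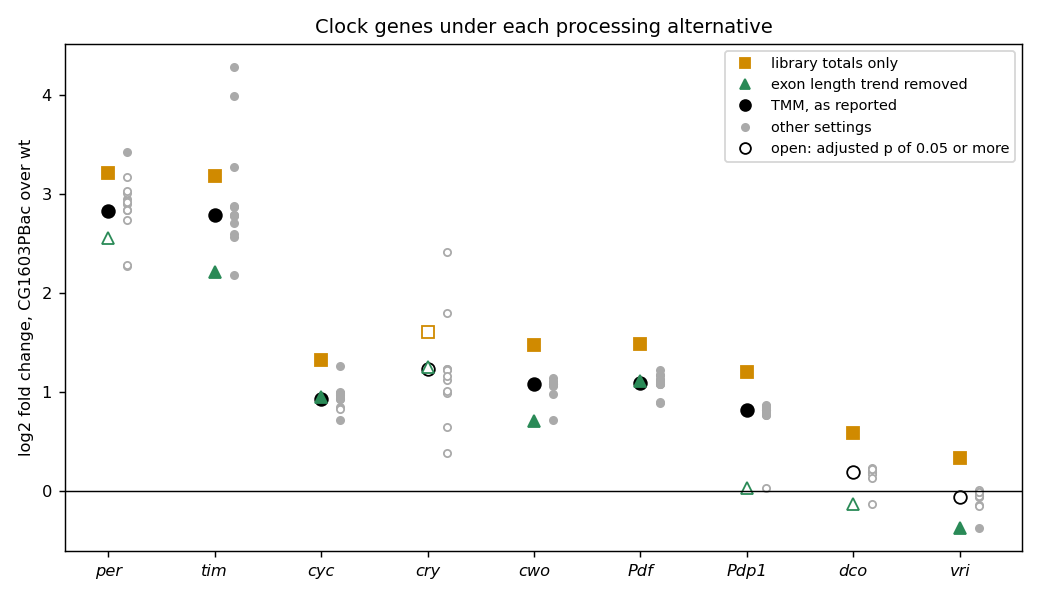
Log2 fold change of CG1603PBac over wt (vertical axis) of the 9 clock genes tested, as reported (black), with library totals only (orange squares), with the exon length trend removed (green triangles) and in the other settings (grey), with open symbols where the adjusted p was 0.05 or more. Library totals lie above the black point in every gene, and removal of the length trend takes Pdp1 to 0.03 and vri to −0.37.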

How the data were processed

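Poly(A) RNA of whole larvae was measured in 3 CG1603PBac and 3 wt libraries, named biological replicates in the labels. The authors aligned reads to dm6 with STAR and deposited raw HTSeq counts per gene. The annotation and the strand setting are not given in the sources used here. HTSeq categories that name no gene (45.2 ± 0.332% of reads in CG1603PBac and 20.5 ± 0.442% in wt libraries) were left out. No pair of replicates was alike within sampling noise, with a chi-square per gene between 7.46 and 17.0.

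TMM scaling and the robust quasi-likelihood F test came from edgeR 4.0.16 (R 4.3.3), with filterByExpr at a minimum count of 10 and a total of 15, and Benjamini-Hochberg adjustment over 11306 genes. The SE is the log2 fold change over the square root of F. The fit was tested on simulated data. Of 16727 symbols, 16529 matched the Ensembl annotation in dm6 coordinates, which gave exon lengths. Alternatives were DESeq2 1.42.0, its size factors, library totals, 2 other filters, limma-voom (3.58.1), a replicate block, removal of the exon length trend (a loess fit of span 0.5), also together with the block, and each library left out.

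Members and lists were chosen with earlier results of these data known. The rule named the 10 members, CG1603, the 2 highest and 2 lowest of each clock and paralog list, 6 further genes (sgg, nmo, slmb, jet, Pdfr and Bdbt), and the highest and lowest of each marker list. Genes at 0 and genes that overlap a member are named beside it. A planned search for promoter motifs was not run.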

Additional observations from a re-analysis of the deposited data

How the results depend on the processing

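Of the values of single clock genes under the alternatives, 115 kept their outcome, 12 lost the call, 4 gained one and 1 reversed. The 115 include values without a call in either setting, such as all those of cry. The reversed value was vri at 0.34 with library totals only. With library totals 2585 of all genes were lower, against 3946 with TMM, and 5661 higher, against 3936. With the length trend removed, with or without the replicate block, 1 clock gene (vri) was lower. The number of clock genes higher was 4 to 8 in all settings, from 4 to 6 with each library left out, and the number lower was then 0. Of all genes, 3347 to 5661 were higher. The cause of these shifts was not tested.

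Replicate numbers in the labels did not pair the samples, with correlations of deviations between same-numbered libraries of 0.01, −0.02 and −0.01. With the replicate block 7741 genes were called, against 7882, and of the clock genes 5, against 6, per being lost (adjusted p = 0.0668 from edgeR). Low counts kept Clk from the test, spread between libraries was wide for cry, per and tim, and intervals and floors cover counting error only. The p-values measure the spread between these libraries.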
